A study of Mus musculus with 454 samples.

Results

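Neurotrophins are secreted growth factors that keep neurons alive during development and adjust synapses in the adult brain. Each is made as a proneurotrophin that proteases cut to its mature form. Bdnf (brain-derived neurotrophic factor) acts mainly through the receptor tyrosine kinase TrkB, encoded by Ntrk2, and Ntf3 (neurotrophin-3) mainly through TrkC, encoded by Ntrk3. The p75 receptor, encoded by Ngfr, binds all neurotrophins and their uncut forms, and in the adult forebrain it is best known from basal forebrain cholinergic neurons. Transcription of Bdnf is raised by neuronal activity, and in reward circuits Bdnf is known as a factor that modifies responses to cocaine.

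The 5 genes described here are 2 ligands (Bdnf and Ntf3) and 3 receptors (Ntrk2, Ntrk3 and Ngfr). They were listed by symbol and not by a rule on their values, though with earlier results of these data known. All 5 were found by Ensembl identifier among the 43346 genes of the count table. In the GENCODE M21 annotation of GRCm38, Bdnf (ENSMUSG00000048482) lies on the plus strand of chromosome 2 from 109674700 to 109727007, and Ntf3 (ENSMUSG00000049107) on the minus strand of chromosome 6 from 126101412 to 126166910. Ntrk2 (ENSMUSG00000055254) lies on the plus strand of chromosome 13 from 58806569 to 59133970. Ntrk3 (ENSMUSG00000059146) lies on the minus strand of chromosome 7 from 78175959 to 78738012, and Ngfr (ENSMUSG00000000120) on the minus strand of chromosome 11 from 95568818 to 95587735. Their joined exons cover 6217 bases for Bdnf, 1714 for Ntf3, 19292 for Ntrk2, 30170 for Ntrk3 and 3446 for Ngfr. An antisense gene, Gm45346, overlaps 4 Bdnf exons, so that reads from it may be part of the Bdnf count if strand was not used in counting.

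The study measured polyadenylated RNA in mouse brain after social isolation in adolescence, by the series title. The region labels are VTA (115 libraries) and PFC (112), short for ventral tegmental area and prefrontal cortex, and Nac (112) and AMY (115), short for nucleus accumbens and amygdala. Mice of both sexes, group-housed or socially isolated, had been given saline or 7.5 mg/kg cocaine by an acute or by a chronic schedule, and the 64 combinations with region hold 5 to 8 libraries each. Strain, age, number of injections and time of tissue collection were not found in the labels. The labels do not say that the libraries of a group came from separate animals, so that p-values measure the spread between these libraries, which may be technical in part.

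The smallest library had 11.21 M (mega-counts), the largest 52.34 M and the median library 21.71 M. The median library held 476 reads of Bdnf, 20 of Ntf3, 18299 of Ntrk2, 1183 of Ntrk3 and 60 of Ngfr, so that Ntf3 was the least and Ntrk2 the most precisely measured. By principal components, marker lists or sex-linked genes 15 libraries stood apart from the rest (5 in AMY, 7 in Nac, none in PFC, 3 in VTA), and results that change without them are given both ways. Sample titles end in numbers of 4 series, which begin at 500, 1000, 1100 and 1200, and the labels do not say what the numbers stand for. Acute groups fall in series 1000 and 1100, chronic saline groups in 500 and 1200, and chronic cocaine groups in 1000 and 1200. Schedule and number series therefore cannot be told apart among saline libraries, whereas series 1000 holds both schedules with cocaine. Within series 1000 the chronic cocaine libraries all carry higher title numbers than the acute ones, so that schedule and number order coincide there.

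Levels are given in CPM, counts of a gene per mega-count of the library after TMM scaling, as mean ± SD over libraries. Bdnf was highest in PFC, at 43.96 ± 11.85 CPM (n = 112), and lowest in Nac, at 2.772 ± 5.502 CPM (n = 112). Its 112 PFC libraries ran from 16.3 over a median of 42.62 to 80.14 CPM, and the Nac libraries from 0.2712 over a median of 0.8731 to 35.96 CPM. AMY, at 23.16 ± 7.143 CPM (n = 115), and VTA, at 21.84 ± 7.238 CPM (n = 115), lay between. Of the 86 title numbers that recur in all 4 regions, 82 had their highest Bdnf in PFC and 82 their lowest in Nac. The Nac values were thus near a low floor in most libraries, with a long upper tail that reached the levels of the other regions.

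Ntf3 had another regional order. It was highest in VTA, at 5.94 ± 2.315 CPM (1.688, median 5.597, 10.91; n = 115), and this held for 86 of the 86 title numbers. PFC followed at 1.26 ± 0.5538 CPM, then AMY at 0.8082 ± 0.536 CPM, and Nac had 0.1709 ± 0.1235 CPM with 2 libraries at 0. In Nac, Ntf3 was below the filter on low counts and was not tested between groups there.

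The receptors were more even across regions. Ntrk2 ran from 719.1 ± 86.45 CPM in Nac over 801.5 ± 71.94 in VTA and 880.6 ± 91.78 in PFC to 953.6 ± 90.76 in AMY. Ntrk3 was at 63.92 ± 12.8 CPM in Nac and 63.88 ± 11.82 in PFC, and at 47.67 ± 8.204 in AMY and 47.64 ± 6.481 in VTA. Ngfr was lowest in PFC, at 1.122 ± 0.4138 CPM, which was the lowest region for 83 of 86 title numbers. Its medians in AMY (3.114 CPM), Nac (3.111) and VTA (3.26) lay close together, but single libraries reached 72.96 CPM in AMY and 34.63 in Nac against 7.855 in VTA. The coefficient of variation over libraries was 8.975% to 12.02% for Ntrk2 and 13.6% to 20.02% for Ntrk3, and reached 155.5% for Ngfr in AMY and 198.5% for Bdnf in Nac.

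**Figure D1:**
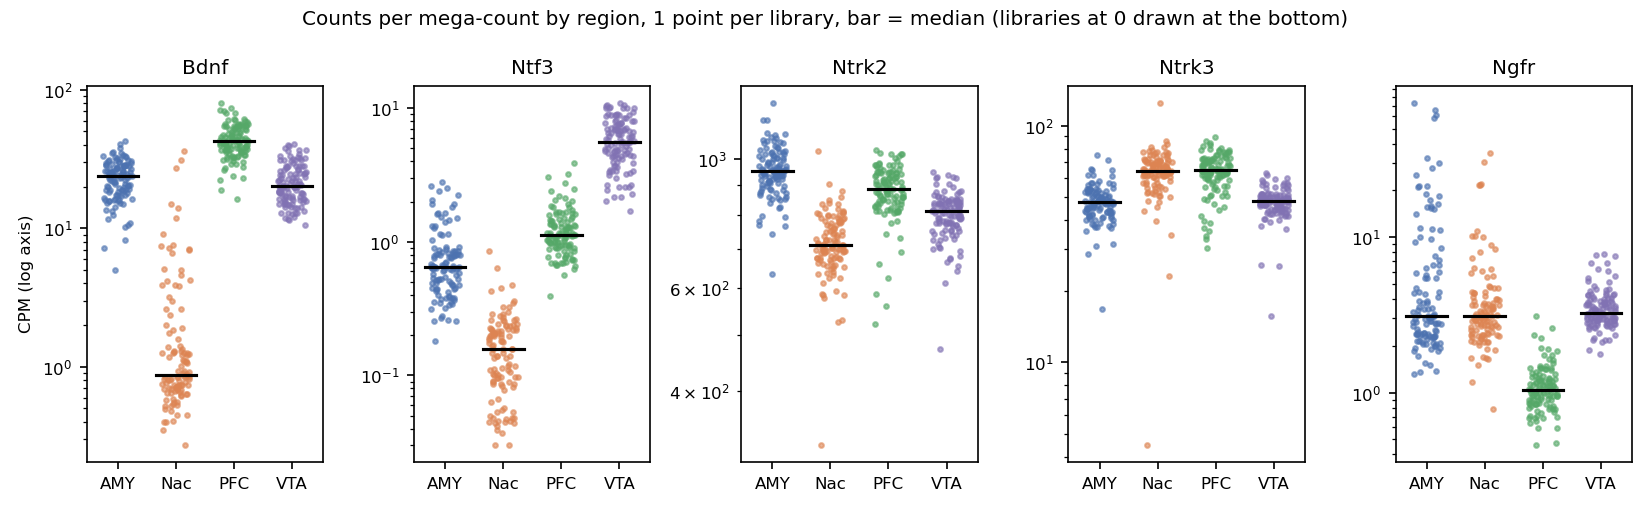
CPM of the 5 genes by region on a log axis, with 1 point per library and a bar at the median. The 2 Nac libraries without Ntf3 reads are drawn at the bottom. Bdnf peaks in PFC and Ntf3 in VTA, both are lowest in Nac, and Ntrk2 varies least.

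Regions were compared in one edgeR fit over all libraries and 18627 genes, where nearly every gene differs: 84.4% of genes passed between AMY and Nac, 81.5% between AMY and PFC, 87.3% between AMY and VTA, 86% between Nac and PFC, 90.4% between Nac and VTA and 89.3% between PFC and VTA. Of the 30 tests of the 5 genes, 27 passed, a share near that background. Bdnf in Nac was lower than in PFC by a log2 difference of -4.32 (SE 0.11), and in PFC higher than in VTA by 1.0 (SE 0.09). Ntf3 in Nac was lower than in VTA by -5.10 (SE 0.10), and Ntf3 in AMY lower than in VTA by -2.86 (SE 0.08). Ngfr in AMY exceeded that in PFC by 2.63 (SE 0.14). Neighbours that did not differ beyond their spread were Bdnf in AMY and VTA (log2 difference 0.12, SE 0.09, edgeR adjusted p = 0.21), Ntrk3 in AMY and VTA (0.00, SE 0.04, 0.931) and Ntrk3 in Nac and PFC (0.00, SE 0.04, 0.997). Ngfr in Nac passed against VTA (0.27, SE 0.13, edgeR adjusted p = 0.0333) but not with limma voom (0.06, adjusted p = 0.669). AMY minus VTA for Ngfr was 0.95 with edgeR and 0.37 with limma voom.

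Levels of different genes can be set beside each other only per length. Per kilobase of joined exons, median Ntrk2 (49.39, 36.94, 46.08 and 42.14 CPM per kb in AMY, Nac, PFC and VTA) exceeded Ntrk3 (1.57, 2.139, 2.145 and 1.593), with median ratios within a library of 31.35, 17.36, 21.77 and 26.33. Both counts pool full-length and truncated receptor forms. The median ratio of Bdnf to Ntf3 per kilobase was 10.17 in PFC and 9.649 in AMY, 2.137 in Nac (n = 110) and 1.023 in VTA. In VTA the 2 ligands were thus about level, at medians of 3.226 CPM per kb for Bdnf and 3.265 for Ntf3.

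Within a region, each gene was compared across libraries with cell type marker lists, after subtraction of the group means, which made 300 relations of which 129 passed an adjusted permutation p of 0.05. Tissue samples hold mixed cells, and in such bulk libraries fewer cells of a type and less RNA per cell cannot be told apart. Bdnf in Nac moved with a list of 5 markers of cortical glutamatergic neurons, among them Slc17a7, Tbr1, Neurod6 and Fezf2: Pearson's r was 0.91 and Spearman's rho 0.80 over 112 libraries. Without the 2 libraries farthest from the median r was 0.90, and within the series 500, 1000, 1100 and 1200 it was 0.94, 0.87, 0.97 and 0.90. Ntf3 in VTA moved with the dopamine neuron list (Th, Slc6a3, Ddc, Slc18a2 and Foxa1), at r = 0.91, rho = 0.90 and r = 0.90 without the 2 farthest of 115 libraries, and 0.94, 0.87, 0.94 and 0.83 within the series. Ngfr in AMY moved with the cholinergic list (5 genes, among them Chat, Slc5a7, Slc18a3 and Lhx8), at r = 0.86, rho = 0.81 and r = 0.85 without the 2 farthest, and 0.96, 0.80, 0.86 and 0.88 within the series. Each of these permutation p-values was 1e-05, the smallest that 100000 permutations can give (adjusted p = 6.98e-05 for r).

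Bdnf had other partners elsewhere. In AMY it ran against the cholinergic list, with r = -0.82 and rho = -0.83 (without the 2 farthest -0.81; within series -0.74, -0.85, -0.76 and -0.83). In PFC it ran with the cortical list at r = 0.71 and rho = 0.66 (without the 2 farthest 0.66; within series 0.30, 0.74, 0.62 and 0.88). In VTA it ran with the dopamine list at r = 0.58 and rho = 0.53 (within series 0.87, 0.52, 0.45 and 0.81). The permutation p was 1e-05 for each. Among the 5 genes, Ntrk2 and Ntrk3 moved together in Nac (r = 0.63), PFC (0.67) and VTA (0.66) and less so in AMY (0.14), and Bdnf and Ngfr moved oppositely in AMY (-0.75). These correlations between members are descriptions without a test, over libraries whose depth and tissue content both genes share.

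**Figure D2:**
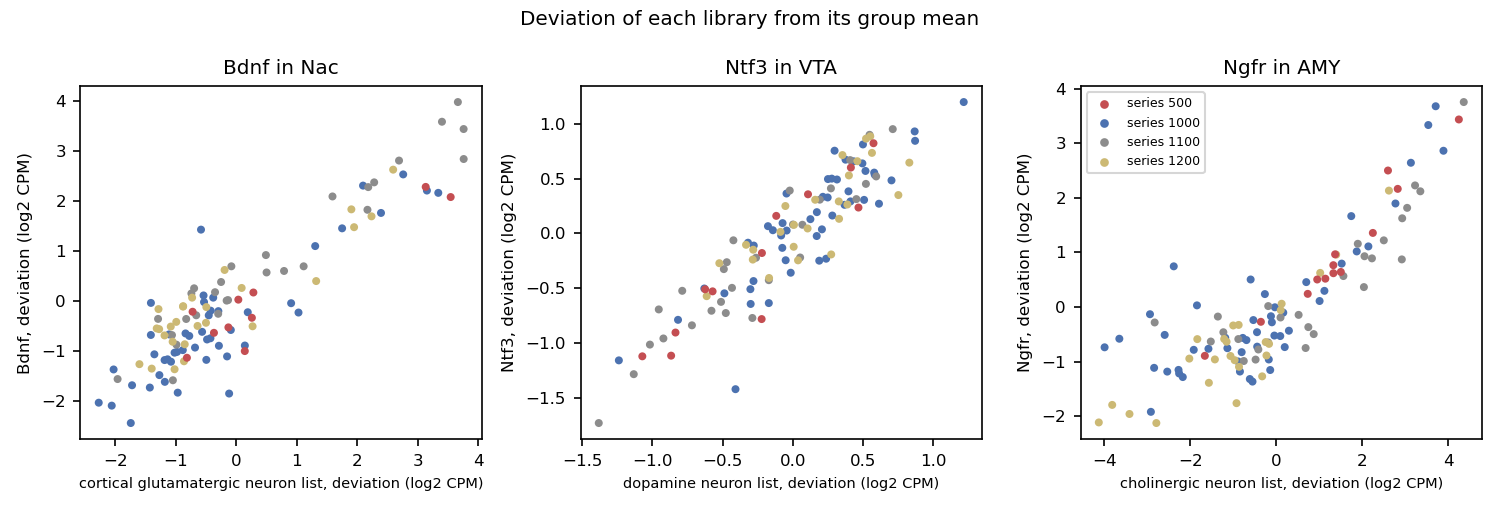
Each point is a library, with the log2 CPM of a gene against the mean log2 CPM of a marker list, both after subtraction of group means, coloured by number series. Bdnf in Nac follows the cortical list (r = 0.91), Ntf3 in VTA the dopamine list (r = 0.91) and Ngfr in AMY the cholinergic list (r = 0.86), in each series.

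The libraries high in Bdnf in Nac were few. At least 5 CPM was reached by 14 of 112 libraries, 9 of them among the 28 of series 1100, 4 among the 48 of series 1000, 1 among the 26 of series 1200 and 0 of 10 in series 500. The 5 cortical markers summed to a median of 491 CPM (223 to 1320) in these 14 libraries and to 14.2 CPM (at most 428) in the others. Ngfr reached 5 CPM in 38 of 115 AMY libraries, with a median cholinergic sum of 46 CPM (1.45 to 207) against 5.99 (at most 27.3) in the others. For both genes the sums in high and other libraries overlapped, and for Ngfr the lowest sum in a high library lay below the median of the others.

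The genes most like each of the 5 across libraries of a region were ranked by Pearson's r after subtraction of group means, as a description. In VTA, Ntf3 was closest to Slc39a4 (0.94), Th, the rate-limiting enzyme of dopamine synthesis (0.93), and Sdc2 (0.91). In AMY, Ngfr was closest to Slc5a7, the choline transporter (0.90), Nefh (0.90) and Syt2 (0.89), and Bdnf to Grhl1 (0.88), Nr2f2 (0.86) and Cacna2d1 (0.84). Bdnf was closest in Nac to Adcyap1 (0.93), Rtn4r (0.93) and Nptx1 (0.92), in PFC to Pip4k2c, Rgs4 and Sowahb (0.82 each), and in VTA to Camk2d (0.87), Camkv (0.86) and Rxrg (0.86). The nearest genes of Ntrk3 reached 0.98 in Nac (Med12l) and 0.93 in PFC (Dlgap2). The nearest gene of Ntf3 in Nac, where it was scarcely read, reached 0.41 (Fgd5).

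Bdnf differed between schedules. In PFC the 28 acute saline libraries ran from 38.4 over a median of 54.8 to 80.1 CPM, and the 26 chronic saline libraries from 22.1 over 38 to 48.2 CPM. The groups overlapped, but 0 of the 26 chronic libraries lay above the acute median. Bdnf fell from 54.6 ± 9.35 to 37.8 ± 6.0 CPM, a log2 change of -0.52 (SE 0.07, edgeR adjusted p = 1.75e-08). In VTA the 28 acute libraries ran from 11.7 over 28.1 to 40.8 CPM and the 29 chronic ones from 10.6 over 17.0 to 22.6 CPM, with 0 of 29 above the acute median. The change was -0.61 (SE 0.10, edgeR adjusted p = 7.07e-07; 26.4 ± 9.02 against 17.0 ± 3.53 CPM). Beside these values, schedule separates many genes among saline libraries: 20.9% of all genes tested passed in Nac, 20.4% in AMY, 23.3% in PFC and 43.6% in VTA, and 7 of the 19 tests of the 5 genes.

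In AMY, Bdnf was at 20.9 ± 6.98 CPM in 30 chronic and 25.7 ± 8.62 in 27 acute saline libraries and did not pass (-0.30, SE 0.13, edgeR adjusted p = 0.0809). In Nac the log2 change was -1.51 (SE 0.42, edgeR adjusted p = 0.00532), from 5.71 ± 10.1 CPM (n = 27) to 1.38 ± 1.5 CPM (n = 28). The Nac medians were 1.13 and 0.80 CPM, and 10 of 28 chronic libraries lay above the acute median. With limma voom the Nac change was -0.80, and with number series as terms it was 0.59 (SE 0.77). Here and below, such terms take the step from series 1000 to 1200 from chronic cocaine libraries alone. Whether that step holds under saline was not tested. The 13 acute saline Nac libraries of series 1000 had 0.93 ± 0.484 CPM and the 14 of series 1100 had 10.2 ± 12.6 CPM. The summed cortical markers there ran from 8.16 to 1320 CPM in acute saline and from 6.51 to 422 CPM in chronic saline libraries, none of the markers was at 0 in either, and their part in the Nac result was not tested.

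The same comparison in cocaine libraries, added after the data were examined, is the one that does not rest on number series alone. Bdnf in PFC was at 49.0 ± 10.2 CPM with acute cocaine (27.3, median 46.8, 73.9; n = 30) and at 33.7 ± 7.31 CPM with chronic cocaine (16.3, median 33.9, 45.6; n = 28). None of the 28 chronic libraries lay above the acute median, and the log2 change was -0.52 (SE 0.07, edgeR adjusted p = 8.99e-09). In VTA it fell by 0.44 (SE 0.10, edgeR adjusted p = 0.000256), from 25.4 ± 6.68 CPM (12.8, median 25.1, 39.2; n = 29) to 18.7 ± 3.05 CPM (13.9, median 18.3, 26.7; n = 29), with 1 of 29 chronic libraries above the acute median. AMY (-0.20, edgeR adjusted p = 0.274) and Nac (0.01, 0.99) did not pass. With number series as terms both passed, in opposite directions, at -0.37 in AMY (SE 0.14, edgeR adjusted p = 0.0421) and 1.43 in Nac (SE 0.44, 0.0223). Over all genes 24.3% passed in Nac, 18.4% in AMY, 18.5% in PFC and 38.2% in VTA, and 5 of 19 tests of the 5 genes.

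Within series 1000 alone, Bdnf fell with chronic cocaine in PFC by 0.41 (SE 0.08, edgeR adjusted p = 0.000859; 34.5 ± 7.42 CPM, n = 20, against 46.3 ± 7.25, n = 15). In VTA it fell by 0.36 (SE 0.10, edgeR adjusted p = 0.00532; 19.2 ± 3.24 CPM, n = 21, against 24.7 ± 6.23, n = 16). In AMY it was at 21.7 ± 5.89 CPM (n = 22) against 26.8 ± 4.12 (n = 14) and did not pass (-0.34, SE 0.13, edgeR adjusted p = 0.069), nor did Nac (1.04, SE 0.42, 0.131). Of all genes 4.65% passed in Nac, 13.2% in AMY, 14.9% in PFC and 26.7% in VTA. Of the 4 combinations of sex and housing, 4 had a lower mean Bdnf with the chronic schedule in PFC and 4 in VTA, under saline and under cocaine. With number series as terms beside all groups, the PFC change was -0.37 (SE 0.14, adjusted p = 0.293) under saline and -0.38 (SE 0.08, adjusted p = 0.000553) under cocaine, and in VTA -0.47 (SE 0.20, adjusted p = 0.126) and -0.50 (SE 0.12, adjusted p = 0.000703), all from edgeR. Whether the schedule difference itself differed between saline and cocaine was not tested. Cell type markers moved as well: in VTA 4 of 5 dopamine markers were higher in chronic saline libraries (list median 0.71), with summed medians of 4700 against 2740 CPM, whereas in PFC 1 of 5 cortical markers was lower (list median -0.09), with sums of 2220 against 2280 CPM. Within series 1000 under cocaine, PFC had 6 of 6 oligodendrocyte markers (list median 0.74) and 4 of 6 striatal markers (0.69) higher and 2 of 5 cortical markers lower (-0.14). In VTA there, 5 of 5 microglial markers (0.33) and 3 of 5 dopamine markers (0.46) were higher, and 4 of 7 medial amygdala and hypothalamic markers were lower (-0.49). Their part in the Bdnf values was not tested.

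**Figure D3:**
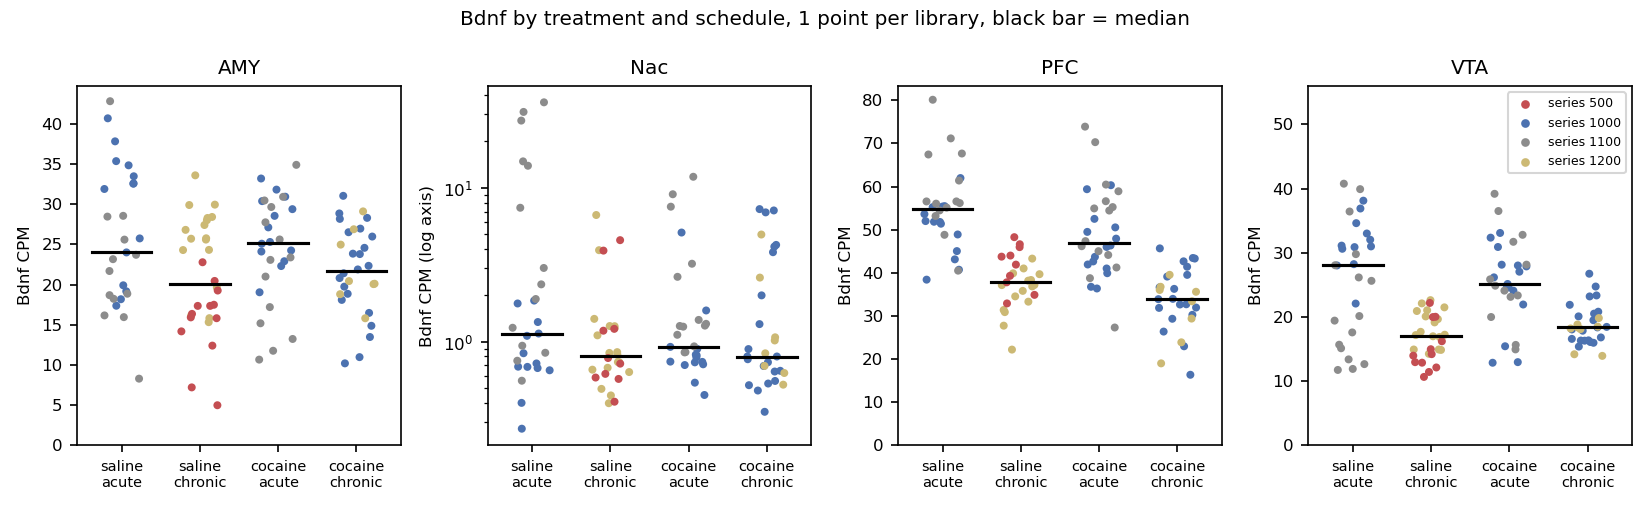
Bdnf CPM in each library by treatment and schedule, coloured by number series, with a black bar at the median and a log axis for Nac only. In PFC no chronic library exceeds the median of its acute group (54.8 CPM with saline, 46.8 with cocaine), and in Nac the highest acute saline values come from series 1100.

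Other genes that neuronal activity is known to induce were also lower with the chronic schedule. Some passed where Bdnf did not, in AMY under both treatments and in Nac under cocaine. The list of these genes was chosen with earlier results of these data known, so that this is a description and no independent test. Of 10 such genes (Arc, Vgf, Egr1, Fos, Homer1, Nptx2, Scg2, Inhba, Nr4a1 and Dusp6), 10 were lower in chronic than acute saline libraries in PFC, 9 in VTA, 8 in AMY and 5 in Nac, and 0 were higher, where 23.3%, 43.6%, 20.4% and 20.9% of all genes passed in either direction. With number series as terms, 6 passed as lower under saline in PFC (Arc, Egr1, Fos, Nptx2, Nr4a1 and Dusp6), 4 in VTA (Egr1, Fos, Scg2 and Nr4a1), 1 in AMY (Nr4a1) and 1 in Nac (Fos). These terms do not separate schedule from series among saline libraries, because the step between their series comes from cocaine libraries. Without these terms the list medians were -0.72, -0.52, -0.52 and -0.36, while the median of all genes lay between 0.002 and 0.012. Under cocaine 10, 9, 6 and 3 were lower and 0 higher, where 18.5%, 38.2%, 18.4% and 24.3% of all genes passed. In PFC, Fos changed by -1.85 (SE 0.16, edgeR adjusted p = 1.58e-16) under saline, and Egr1 by -1.34 (SE 0.10, 1.2e-20). Within series 1000 under cocaine they changed by -1.53 and -0.85, and 8 of the 10 genes were lower in PFC, 6 in VTA, 4 in AMY and 1 in Nac. There 14.9%, 26.7%, 13.2% and 4.65% of all genes passed. The exception in VTA under saline was Arc, at -0.05 (SE 0.05, edgeR adjusted p = 0.459).

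**Figure D4:**
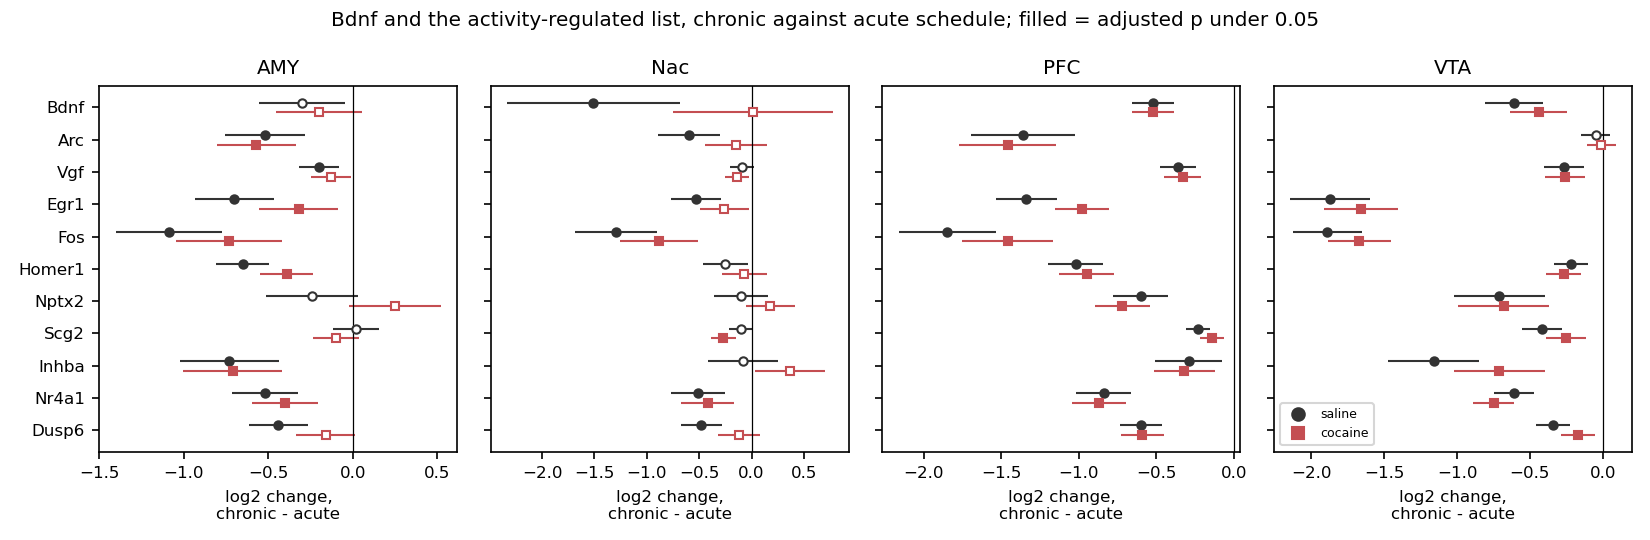
Log2 change, chronic minus acute, of Bdnf and 10 activity-regulated genes with saline and with cocaine, by region. Bars are 95% intervals. All points for PFC lie below 0, led by Fos (-1.85 with saline), and Arc in VTA lies near 0.

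Bdnf is a known target of CREB, which binds cAMP response elements, and its start sites were read for that motif. RefSeq (GRCm38.p6) lists 7 Bdnf windows that run from 250 bases before to 50 after a start. The element's core TGACGT, or its reverse ACGTCA, was searched on both strands, and 1 of the 7 windows holds it, against 2468 of 32851 windows of all genes (7.51%). The table has entries for 4 of the 5 genes, and no window of Ntf3, Ntrk2 or Ngfr holds these letters. The window with the match is chr2:109692186-109692485 on the plus strand, shown with the core in capitals:
Bdnf start window 3: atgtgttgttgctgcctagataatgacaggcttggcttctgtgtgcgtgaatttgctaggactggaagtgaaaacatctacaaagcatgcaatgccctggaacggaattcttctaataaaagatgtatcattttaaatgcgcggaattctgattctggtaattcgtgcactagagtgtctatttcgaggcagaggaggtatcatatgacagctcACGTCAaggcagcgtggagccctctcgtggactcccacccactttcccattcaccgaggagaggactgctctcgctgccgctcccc
The counts join all Bdnf transcripts, so that the share that starts at this window was not measured, and the match is a description only.

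Several genes for the maturation of neurotrophins also fell with the chronic schedule. Of 8 genes for proneurotrophin processing, 3 were lower in Nac, 3 in AMY, 4 in PFC and 5 in VTA under saline, and none was higher (list medians -0.14, -0.02, -0.11 and -0.24). The shares of all genes that passed there were 20.9%, 20.4%, 23.3% and 43.6%. Within series 1000 under cocaine 0 were lower in Nac, 1 in AMY, 3 in PFC and 2 in VTA. There 4.65%, 13.2%, 14.9% and 26.7% of all genes passed. Plat, tissue plasminogen activator, whose plasmin cuts proBDNF, fell by 0.30 (SE 0.05) in AMY, 0.25 (SE 0.05) in Nac, 0.39 (SE 0.05) in PFC and 0.27 (SE 0.05) in VTA under saline, and by 0.39, 0.26, 0.37 and 0.36 under cocaine. Its edgeR adjusted p was at most 4.25e-05 in these 8 tests. Pcsk1, a prohormone convertase of secretory granules, fell under saline by 0.51 in PFC (SE 0.09, edgeR adjusted p = 2.6e-06) and 0.89 in Nac (SE 0.13, 1.55e-07). Under cocaine 2, 2, 3 and 3 of the 8 were lower and 1, Pcsk7 in Nac, was higher (0.16, SE 0.05). The shares of all genes that passed under cocaine were 24.3% in Nac, 18.4% in AMY, 18.5% in PFC and 38.2% in VTA.

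Of 5 feedback inhibitors of receptor tyrosine kinase signalling, 4 were lower in PFC, 3 in AMY, 2 in Nac and 2 in VTA in chronic saline libraries, and Spry1 was higher in AMY (0.21, SE 0.05) and Nac (0.19, SE 0.04). Spry4 fell in each region under saline, by 0.39 in Nac, 0.44 in AMY, 0.48 in PFC and 0.43 in VTA, and under cocaine by 0.21, 0.20, 0.44 and 0.29. Within series 1000 under cocaine no feedback inhibitor passed in Nac or AMY, so that Spry4 did not pass there. In that comparison 3 were lower in PFC, and 1 was lower and 1 higher in VTA. The shares of all genes were 4.65% in Nac, 13.2% in AMY, 14.9% in PFC and 26.7% in VTA. In PFC under saline, Spred1 changed by -0.38 (SE 0.04) and Spred2 by -0.44 (SE 0.05). Of 24 adaptors and kinases of Trk signalling, 2 were higher and 5 lower in Nac, 1 and 4 in AMY, 1 and 7 in PFC and 3 and 6 in VTA, with list medians between -0.03 and 0.00. Beside the 20.9%, 20.4%, 23.3% and 43.6% of all genes that passed, these counts are no result about the list. Within series 1000 under cocaine 0 passed in Nac, 2 were higher in AMY, 1 was higher and 4 lower in PFC, and 2 and 5 in VTA. These counts stand beside 4.65%, 13.2%, 14.9% and 26.7% of all genes. Among the clearest under saline were Crkl in PFC (-0.27, SE 0.05, edgeR adjusted p = 9.43e-06), an adaptor of the Crk family, and Sh2b2 in VTA (-0.41, SE 0.06, 2.49e-08).

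Of 12 regulators of Bdnf transcription, 2 were higher and 1 lower in Nac, 2 and 2 in AMY, 3 and 3 in PFC and 0 and 2 in VTA, against the same shares of all genes (20.9%, 20.4%, 23.3% and 43.6%). Within series 1000 under cocaine 0 passed in Nac, and 2 were higher and 1 lower in AMY, 1 and 2 in PFC and 0 and 3 in VTA. Of all genes 4.65%, 13.2%, 14.9% and 26.7% passed there. The changes that follow are those under saline. Creb1, which binds cAMP response elements, fell by 0.18 (SE 0.03) in AMY, 0.19 (SE 0.04) in Nac, 0.14 (SE 0.04) in PFC and 0.29 (SE 0.04) in VTA. Carf, a calcium-response factor for Bdnf, rose in AMY (0.14), Nac (0.25) and PFC (0.20). Of 9 other neurotrophin receptors and co-receptors, none passed in AMY or Nac, Lingo1 fell in PFC (-0.18, SE 0.06), and Sorcs3 (-0.80, SE 0.07) and Sorcs1 (-0.65, SE 0.07) were among those that fell in VTA. The 5 adaptors of the p75 receptor had 1, 1, 0 and 1 lower members, Traf6 each time, and Bex3 rose in VTA (0.16, SE 0.04). Beside the 20.9%, 20.4%, 23.3% and 43.6% of all genes that passed, these counts are no result about either list. Within series 1000 under cocaine, 1 receptor was higher in Nac and 1 in AMY. In PFC 3 were lower, and in VTA 3. Of the p75 adaptors, 1 was higher and 1 lower in AMY, and 1 was higher in VTA. There 4.65%, 13.2%, 14.9% and 26.7% of all genes passed.

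The receptors and Ntf3 followed the schedule less evenly than Bdnf. Ntrk2 in Nac fell from 775 ± 83.0 CPM (n = 27) to 674 ± 90.9 CPM (n = 28) under saline, by 0.19 (SE 0.05, edgeR adjusted p = 0.00224), and by 0.17 without the libraries that stand apart. With number series as terms the call was lost (-0.13, SE 0.09, edgeR adjusted p = 0.954). In AMY it rose by 0.10 (SE 0.04, edgeR adjusted p = 0.0445; 995 ± 105 against 932 ± 62.0 CPM). That call was lost with limma voom (adjusted p = 0.0601), DESeq2 (0.0505), no filter (0.0564) and number series as terms (0.404). Under cocaine neither passed. Ntrk3 did not pass in any of the 8 tests of schedule, with log2 differences between -0.15 and 0.14.

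Ngfr in Nac fell by 0.84 under saline (SE 0.25, edgeR adjusted p = 0.0104), but the means of 3.73 ± 2.11 (chronic) and 6.93 ± 9.02 CPM (acute) stand beside medians of 3.23 and 2.89 CPM in the opposite order, and with limma voom the change was -0.38 (adjusted p = 0.30), and with number series as terms -0.69 (edgeR adjusted p = 0.954). In VTA it fell by 0.28 (SE 0.10, edgeR adjusted p = 0.0182; 3.54 ± 0.636 against 4.33 ± 1.78 CPM), again lost with limma voom (-0.20, adjusted p = 0.0998), and was -0.65 (edgeR adjusted p = 0.0305) with number series as terms. Under cocaine it rose in PFC from 1.06 ± 0.296 to 1.37 ± 0.527 CPM (0.38, SE 0.11, edgeR adjusted p = 0.0065), also within series 1000 (0.36, SE 0.12, 0.0321), but not with number series as terms (0.34, SE 0.13, 0.0664). The oligodendrocyte and striatal markers that were higher in PFC within series 1000 stand beside this value, and their part was not tested. In AMY it rose by 1.14 (SE 0.40, edgeR adjusted p = 0.0314), with medians of 2.98 and 2.73 CPM and ranges of 1.31 to 61.0 and 1.86 to 73.0 CPM, but limma voom gave 0.56 (adjusted p = 0.322), no filter an edgeR adjusted p of 0.0627, and number series as terms 2.01 (0.000484). In Nac it did not pass (-0.53, SE 0.25, edgeR adjusted p = 0.105) but did without the libraries that stand apart (-0.67, adjusted p = 0.0346). Within series 1000 the AMY change was 2.09 (SE 0.50, edgeR adjusted p = 0.00554), where 5 of 5 cholinergic markers were also higher with a list median of 3.01; their part was not tested. Ntf3 in PFC rose by 0.39 under cocaine (SE 0.14, edgeR adjusted p = 0.0341; 1.52 ± 0.709 against 1.16 ± 0.426 CPM), and missed the threshold with limma voom (adjusted p = 0.0501), with no filter (0.0598), with number series as terms (0.27, 0.271) and within series 1000 (0.30, 0.126). Under saline it was 0.31 (SE 0.14, edgeR adjusted p = 0.113).

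Number series itself was tested with 3 terms beside the groups, and 14.7% of genes passed in PFC, 9.57% in AMY, 3.35% in Nac and 0.257% in VTA. Of the 5 genes, 6 of 19 tests passed. Bdnf in Nac was higher in series 1100 than in series 1000 by 2.28 on the log2 scale (edgeR adjusted p = 0.00476). In AMY, Bdnf (series 500 minus 1000: -0.63, adjusted p = 0.00373), Ntf3 (-0.94, 0.00334) and Ngfr (0.63, 0.00321) differed, and Ngfr was lower in series 1200 by -1.31. In PFC, Bdnf (1100 minus 1000: 0.19, adjusted p = 0.0269) and Ntrk2 (500 minus 1000: -0.15, 0.0424) differed.

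No test of cocaine against saline passed for the 5 genes. After acute cocaine 0 of 19 tests passed (edgeR adjusted p from 0.221), where the share of all genes was 0% in AMY and in Nac, 0.0647% in PFC and 0.0467% in VTA. In AMY 538 genes and in Nac 894 had an unadjusted p under 0.05, and DESeq2 called 0 in both. Ngfr in VTA came nearest, at 3.38 ± 0.815 CPM with cocaine (2.16, median 3.21, 6.04; n = 29) and 4.33 ± 1.78 with saline (1.89, median 3.52, 7.86; n = 28), a log2 difference of -0.36 (SE 0.10, edgeR adjusted p = 0.221) that was -0.25 within series 1000 and -0.38 within 1100. Bdnf in PFC was at 49.0 ± 10.2 against 54.6 ± 9.35 CPM (-0.16, SE 0.07, edgeR adjusted p = 0.406; -0.12 and -0.20 within the series). Bdnf in Nac (-1.08, SE 0.40, edgeR adjusted p = 0.769) was 0.09 within series 1000 and -1.47 within 1100, and Ngfr there (-0.54, SE 0.24, 0.919) was -0.84 and 0.36. For Ntrk2 the 95% intervals of the 4 regions lay between -0.18 and 0.08. In the proneurotrophin list, Pcsk5 fell in VTA (-0.43, SE 0.09, edgeR adjusted p = 0.0428).

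After chronic cocaine again 0 of 19 tests passed, with 0.151% of all genes called in Nac, 0.0518% in AMY, 7.12% in PFC and 0.0817% in VTA. In PFC, Ngfr was at 1.37 ± 0.527 CPM (n = 28) against 1.12 ± 0.435 (n = 26) with saline (0.31, SE 0.11, edgeR adjusted p = 0.0685). Ntrk3 was at 59.2 ± 9.83 CPM (35.8, median 61.1, 77.2) against 67.9 ± 14.5 (30.4, median 71.6, 89.6), and 1 of 28 cocaine libraries lay above the saline median (-0.19, SE 0.08, edgeR adjusted p = 0.117). Bdnf was at 33.7 ± 7.31 against 37.8 ± 6.0 CPM (-0.16, SE 0.07, edgeR adjusted p = 0.16). Within series 1200, the one series with both, these were 0.08 for Ngfr, -0.11 for Ntrk3 and -0.18 for Bdnf. Striatal markers were higher in the same PFC libraries (6 of 6 passed, list median 0.60), and their part was not tested. Of the activity list, Fos (0.58) and Egr1 (0.38) rose in PFC with chronic cocaine.

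No test of housing passed either. Isolated minus group-housed gave 0 of 19 tests, with 0% of all genes called in each region, 0 with DESeq2 and 0 with limma voom, and the unadjusted p was under 0.05 for 421 genes in Nac, 708 in AMY, 407 in PFC and 568 in VTA. Bdnf differed by -0.07 to 0.01 over the regions and Ntrk2 by 0.00 to 0.02, with 95% intervals between -0.06 and 0.09 for Ntrk2. Ngfr in AMY was at 6.67 ± 11.3 CPM in 58 libraries of group-housed and 9.56 ± 13.7 CPM in 57 of isolated mice (0.61, SE 0.27, edgeR adjusted p = 0.995), with 1.76, 0.08, 0.72 and 1.21 within the series 500 to 1200. Ntf3 in PFC was at 1.17 ± 0.496 CPM in libraries of isolated and 1.35 ± 0.596 CPM in those of group-housed mice (-0.20, SE 0.10, edgeR adjusted p = 1.0).

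**Figure D5:**
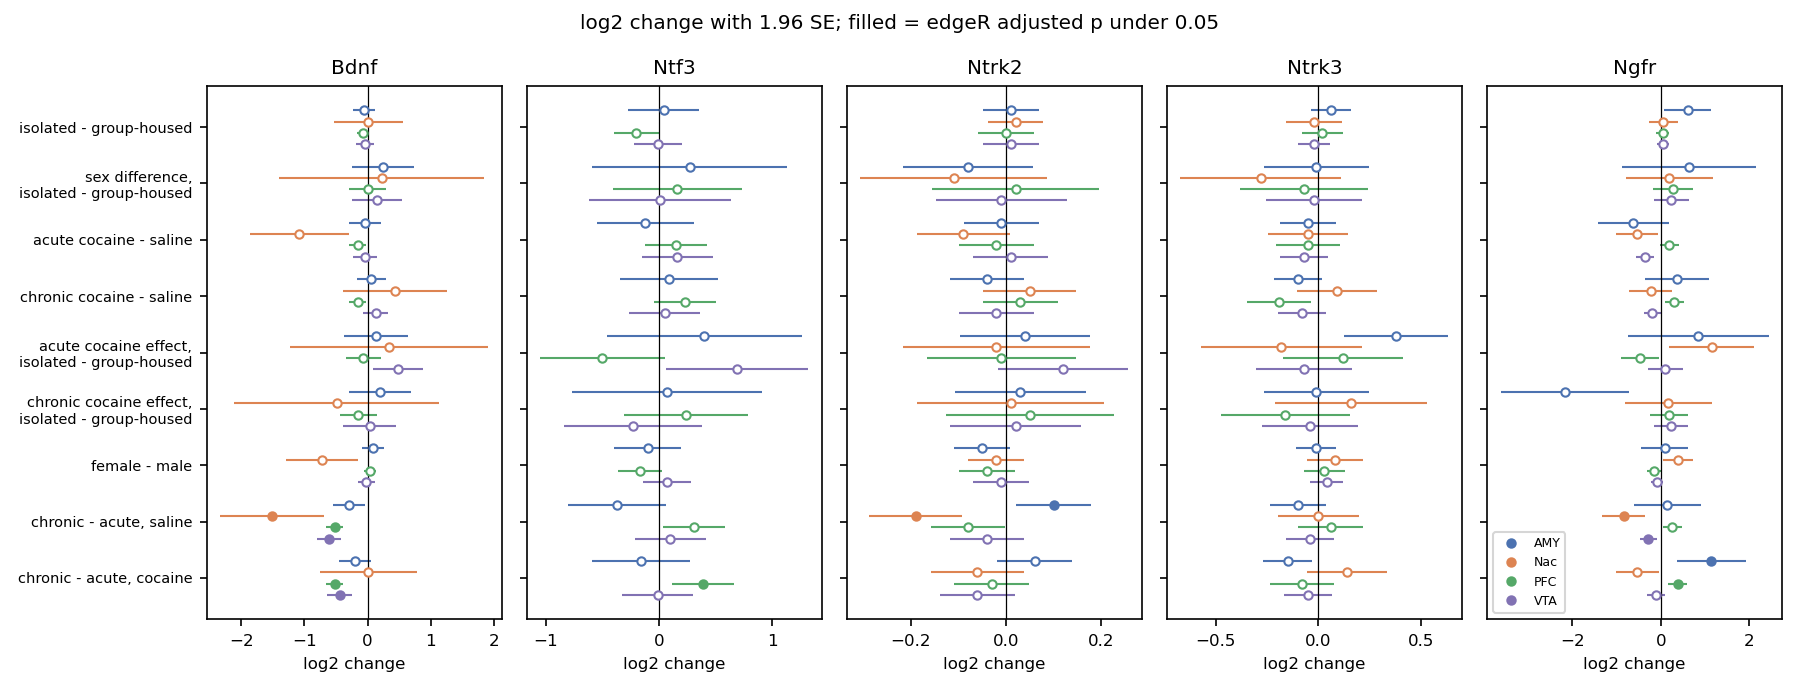
Log2 changes of the 5 genes by comparison and region with 95% intervals; filled points passed an adjusted p of 0.05. Filled points occur for schedule and not for housing, sex, acute cocaine or chronic cocaine.

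Whether housing changed the response to cocaine was tested as an interaction. For acute cocaine 0 of 19 tests passed, where 0% of all genes were called in AMY, Nac and PFC and 1.28% in VTA. In VTA, the isolated minus group-housed value of the acute difference was 0.48 for Bdnf (SE 0.20, edgeR adjusted p = 0.173) and 0.69 for Ntf3 (SE 0.32, 0.223). The differences had opposite signs by housing. Mean Bdnf was lower with cocaine than saline in group-housed females (24.54 against 28.58 CPM) and males (23.74 against 29.92). It was higher in isolated females (24.96 against 21.87) and males (28.24 against 24.27). The means of Ntf3 had the same directions. Ntrk3 in AMY (0.38, SE 0.13, edgeR adjusted p = 0.453), Ngfr in Nac (1.15, SE 0.49, 0.898) and Ngfr in PFC (-0.47, SE 0.22, 1.0) also had an unadjusted p under 0.05. For chronic cocaine 0 of 19 passed and 0% of genes in each region, with Ngfr in AMY at -2.17 (SE 0.74, edgeR adjusted p = 1.0). At an unadjusted p under 0.05 there were 1719, 889 and 437 genes in AMY, Nac and PFC for acute cocaine (3, 2 and 1 with DESeq2), and 564, 2332, 488 and 258 in AMY, Nac, PFC and VTA for chronic cocaine (0 with DESeq2).

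Females and males did not differ past the threshold in any of the 5 genes (0 of 19 tests), where 0.272% of all genes passed in Nac, 2.19% in AMY, 1.12% in PFC and 0.332% in VTA. Bdnf in Nac was at 1.75 ± 2.14 CPM in 52 female and 3.66 ± 7.16 CPM in 60 male libraries (-0.72, SE 0.29, edgeR adjusted p = 0.412), with -0.70, -0.40, -1.46 and 0.58 within the series 500 to 1200. Ngfr in Nac was at 5.51 ± 6.8 against 3.8 ± 3.0 CPM (0.39, SE 0.17, edgeR adjusted p = 0.462). Within the series 500 to 1200 it was -0.96, 0.33, 1.05 and -0.35, so that its sign differed between series. Series 500 holds 10 Nac libraries, with a single library of isolated females (replicate 6). That library stands apart on a principal component and had 0.784 CPM of Ngfr, the lowest of its group. Whether housing changed the sex difference was tested in the saline groups and passed in 0 of 19 tests, with 0% of genes called in each region, none with DESeq2 or limma voom, and the unadjusted p was under 0.05 for 2598 genes in Nac, 649 in AMY, 562 in PFC and 278 in VTA. Over the regions, its 95% intervals lay between -1.40 and 1.84 for Bdnf, between -0.87 and 2.15 for Ngfr and between -0.30 and 0.19 for Ntrk2.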

How the data were processed

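The authors deposited raw read counts per gene. The submitters' processing notes name the genome build GRCm38/mm10 and the tools STAR, featureCounts and limma, and no version, annotation release or strand setting was found there. Per the labels' protocols, stranded TruSeq libraries from 300 ng of RNA were sequenced in pools of 21, in 3 runs of single 50-base reads. Genes without a symbol (884, with 0.11% of counts) stayed in the fits. The most alike pair of libraries in a group had a chi-square of 2.687 per degree of freedom, so none were merged.

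Each region was fitted in R 4.3.3 with edgeR 4.0.16 (glmQLFit robust, glmQLFTest, TMM, filterByExpr) with 16 groups as cell means, and regions were compared in 1 fit of 64 groups. Adjusted p-values are Benjamini-Hochberg over all genes tested, two-sided, at a threshold of 0.05. Standard errors are the log2 change over the square root of F, and 95% intervals follow from them. The fit was tested on simulated data. The depth of 11.21 to 52.34 M limits Ntf3 and Ngfr most. A library stood apart with a robust z over 5 on 4 principal components of 3000 genes or over 8 on a marker list, or with opposite-sex transcripts at 5% of the other sex. Named besides the 5 genes are members of pathway lists past the threshold, at most 4 per list and comparison, and the 3 most correlated genes with a mean of at least 1 CPM. Some members of the lists are not reported here by name. Genes and lists were chosen with earlier results of these data known. Single values are given where the unadjusted p was under 0.05. Replicate numbers follow accession order. Alternatives were limma voom 3.58.1, DESeq2 1.42.0, its size factors, no filter, libraries left out, number series as terms and within series; the comparison of schedules under cocaine and the series terms for saline were added after the data were examined.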

Additional observations from a re-analysis of the deposited data

Results flagged for a closer look

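In groups of 4 to 10 libraries, the highest or lowest value was set against the others with Dixon's criterion, and 61 of 320 combinations of a gene and a group (19.06%) held a library past its 95% value, where chance gives about 5%. The long upper tails of Bdnf in Nac and Ngfr in AMY and Nac hold 8, 10 and 7 of them.

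Bdnf in Nac had a highest library that stood off in 8 groups. The Bdnf values in Nac were 3.927 CPM in group-housed females with chronic saline (replicate 3), 11.79 CPM in isolated females with acute cocaine (replicate 6), 7.414 CPM in isolated females with acute saline (replicate 6) and 6.65 CPM in isolated females with chronic saline (replicate 2). Others were 3.902 CPM in group-housed males with chronic saline (replicate 7), 5.115 CPM in isolated males with acute cocaine (replicate 2), 31.14 CPM in isolated males with acute saline (replicate 7) and 4.563 CPM in isolated males with chronic saline (replicate 8). For Bdnf in PFC the highest library stood off at 56.59 CPM in isolated males with acute cocaine (replicate 7).

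Ntf3 in AMY had a highest library that stood off in 6 groups. The Ntf3 values in AMY were 1.923 CPM in group-housed females with acute cocaine (replicate 2), 1.621 CPM in isolated females with acute cocaine (replicate 5), 2.622 CPM in isolated females with chronic saline (replicate 2) and 1.925 CPM in group-housed males with acute cocaine (replicate 2). Others were 1.819 CPM in group-housed males with chronic saline (replicate 2) and 2.815 CPM in isolated males with chronic cocaine (replicate 4). For Ntf3 in Nac the highest library stood off at 0.6346 CPM in isolated males with acute cocaine (replicate 5). For Ntf3 in PFC the highest library stood off at 2.469 CPM in group-housed females with acute cocaine (replicate 4) and 3.856 CPM in isolated males with chronic cocaine (replicate 6). For Ntf3 in VTA the highest library stood off at 10.22 CPM in group-housed males with acute cocaine (replicate 2).

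For Ntrk2 in AMY the lowest library stood off at 771.3 CPM in group-housed males with chronic cocaine (replicate 3). For Ntrk2 in Nac the lowest library stood off at 323.3 CPM in isolated females with chronic saline (replicate 6). For Ntrk2 in Nac the highest library stood off at 1029.6 CPM in isolated males with acute saline (replicate 7). Ntrk2 in PFC had a lowest library that stood off in 6 groups. The Ntrk2 values in PFC were 521.6 CPM in group-housed females with chronic saline (replicate 7), 587.9 CPM in isolated females with acute cocaine (replicate 7), 624.9 CPM in isolated females with chronic cocaine (replicate 1) and 558.9 CPM in isolated females with chronic saline (replicate 5). Others were 659.5 CPM in group-housed males with acute saline (replicate 7) and 692.8 CPM in isolated males with acute saline (replicate 7).

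For Ntrk3 in AMY the lowest library stood off at 30.94 CPM in group-housed females with acute cocaine (replicate 8). For Ntrk3 in Nac the lowest library stood off at 4.469 CPM in isolated females with chronic saline (replicate 6), 23.23 CPM in isolated males with acute cocaine (replicate 5) and 52 CPM in isolated males with chronic saline (replicate 8). For Ntrk3 in Nac the highest library stood off at 124.4 CPM in isolated males with chronic cocaine (replicate 3). For Ntrk3 in PFC the highest library stood off at 74.27 CPM in group-housed females with acute cocaine (replicate 5). For Ntrk3 in PFC the lowest library stood off at 30.39 CPM in group-housed females with chronic saline (replicate 7) and 37.01 CPM in isolated females with chronic saline (replicate 5). For Ntrk3 in VTA the highest library stood off at 62.02 CPM in group-housed females with acute cocaine (replicate 5) and 63.08 CPM in group-housed females with chronic saline (replicate 6). For Ntrk3 in VTA the lowest library stood off at 25.53 CPM in isolated females with chronic cocaine (replicate 3), 25.86 CPM in group-housed males with acute cocaine (replicate 7) and 15.66 CPM in isolated males with chronic saline (replicate 2).

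Ngfr in AMY had a highest library that stood off in 10 groups. The Ngfr values in AMY were 7.109 CPM in group-housed females with acute cocaine (replicate 8), 60.99 CPM in group-housed females with chronic cocaine (replicate 1), 16.34 CPM in group-housed females with acute saline (replicate 5) and 72.96 CPM in isolated females with acute cocaine (replicate 7). Others were 65.53 CPM in isolated females with chronic saline (replicate 5), 3.383 CPM in group-housed males with acute cocaine (replicate 4), 58.1 CPM in group-housed males with chronic cocaine (replicate 1) and 25.27 CPM in group-housed males with chronic saline (replicate 5). Others were 27.98 CPM in isolated males with chronic cocaine (replicate 1) and 32.54 CPM in isolated males with chronic saline (replicate 8). Ngfr in Nac had a highest library that stood off in 7 groups. The Ngfr values in Nac were 8.852 CPM in group-housed females with acute cocaine (replicate 7), 22.14 CPM in isolated females with acute cocaine (replicate 5), 7.352 CPM in isolated females with chronic cocaine (replicate 6) and 34.63 CPM in isolated females with acute saline (replicate 2). Others were 21.59 CPM in group-housed males with acute saline (replicate 3), 10.12 CPM in group-housed males with chronic saline (replicate 4) and 11 CPM in isolated males with chronic saline (replicate 5). For Ngfr in PFC the highest library stood off at 3.115 CPM in group-housed males with chronic cocaine (replicate 6). For Ngfr in VTA the highest library stood off at 6.043 CPM in isolated females with acute cocaine (replicate 4) and 4.224 CPM in isolated males with chronic saline (replicate 1).

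The library of isolated females with chronic saline in Nac with the lowest Ntrk2 and Ntrk3 (replicate 6) is one of those that stand apart on a principal component. The causes of these values were not tested.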

How the results depend on the processing

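Of the counts of the 5 genes past the threshold, 331 stayed within 1.5 times their value under an alternative and 19 did not. The 331 include counts that were 0 and stayed at 0. All main counts for housing, sex, cocaine against saline and the interactions were 0. Of the single values 366 kept their direction and side of the threshold, 21 lost the threshold, 2 gained it and 7 changed sign. For schedule under saline, AMY (1 gene) went to 0 with no filter on low counts, limma voom, DESeq2 and series terms, Nac (3) to 1 with limma voom and 0 with series terms, PFC (1) to 0 with series terms, and VTA (2) to 1 with limma voom and 1 with series terms. For schedule under cocaine, AMY (1) went to 0 with no filter, 0 with limma voom and 3 with series terms, Nac (0) to 1 with series terms and 1 (Ngfr, -0.67) without the libraries that stand apart, PFC (3) to 1 with series terms, and VTA (1) to 2 within series 1000. For number series, PFC (2) went to 0 with no filter. The counts for housing and sex in Nac also moved within series 500, whose Nac libraries number 10. Its isolated females there are a single library that stands apart. Signs changed for Ntf3 and housing in PFC within series 1100 (0.04), Bdnf and acute cocaine in Nac within series 1000 (0.09), Ngfr and acute cocaine in Nac within series 1100 (0.36), Ngfr and sex in Nac within series 500 (-0.96) and 1200 (-0.35), Bdnf and sex in Nac within series 1200 (0.58), and Bdnf and schedule under saline in Nac with series terms (0.59). The cause was not tested. Leaving out each of the 5 libraries of the smallest group, isolated males with acute cocaine in AMY, changed no count.

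With the title number as a replicate block across regions, Ngfr between Nac and VTA lost the threshold (0.20, adjusted p = 0.117, limma) and no other of the 27 calls did. AMY minus VTA for Ngfr was 0.62 and AMY minus Nac 0.42. Libraries of the same number in 2 regions (99 to 106 shared) deviated together only weakly, with median correlations of 0.007 to 0.042 and 6 to 22 numbers over 0.1. A weak correlation between different regions cannot decide whether a number stands for a single animal. Of the 129 title numbers, 0 carried mixed labels of sex, housing, dose and schedule. The main fit did not use the numbers as a pairing. Depth limits Ntf3 and Ngfr, of which the median library held 20 and 60 reads.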
